A study of Homo sapiens with 12 samples.

Results

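The genes described here belong to the actin and contractile cytoskeleton and were followed across cerebral organoids (COs) with and without an edit of *c-JUN*. They were the muscle and cytoplasmic actins *ACTA2*, *ACTB* and *ACTG1*, the actin-binding proteins *TAGLN* and *CNN1*, the myosin light chain *MYL9*, the tropomyosins *TPM1* and *TPM2*, and the thymosins *TMSB4X* and *TMSB10*. The genes were chosen by symbol, and all 10 were among the 10976 genes of the files. The study asked how the loss of *c-JUN*, a subunit of the transcription factor AP-1, affects human neural development. COs were grown by an unguided protocol from 3 lines, namely human embryonic H1 stem cells (here WT) and the H1 clones KO#2 and KO#10, in which *c-JUN* had been edited with CRISPR-Cas9. Total RNA of several pooled COs made up each library, and 2 libraries were made per line on day 12 and on day 24, 12 in all. The labels name embryonic stem cells as the source of every sample and give all samples the same neural differentiation. Each KO line is 1 clone, H1 is the single WT line, and the study's methods speak of separate batches for its experiments without saying whether the 2 libraries of a line and day came from different ones. The *p*-values therefore measure only the spread between these libraries, which may be technical.

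Actin monomers assemble into filaments that carry cell shape, adhesion and movement, and filaments slide against myosin II when a cell contracts. Tropomyosins lie along the filament and set which proteins bind it, calponin and transgelin stabilise it in contractile cells, and thymosins hold monomers in reserve. In the developing brain the cytoplasmic actins and thymosins are abundant in progenitors and growing neurons, whereas alpha-smooth-muscle actin, calponin and transgelin mark smooth muscle, pericytes and other contractile or mesenchymal cells.

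Each gene has a deposited whole-number score in each library, and every library had a median of 17 and a highest score of 5585. The top of the scale was coarse, since 9 to 10 genes of each library shared the score of 5585 and the next score in use was 3048. The depth of the libraries is unknown, so no counting interval can be given. *JUN* itself scored 4 to 8 (WT) and 13 to 19 (KO) at day 12, then 13 to 15 (WT) and 29 to 39 (KO) at day 24. The transcript thus scored higher in every KO library than in either WT library of the same day. By contrast, the paper reports no *c-JUN* mRNA in the KO groups by RT-qPCR, also in COs, and no c-JUN protein in the KO lines by western blot. The reason for this difference was not tested, and WT and KO below mean the libraries labelled so. At day 24 the first KO#10 library stood apart from the other 3 KO libraries. Its summed score over 11 mesenchyme and fibroblast markers was 3436, against 195 to 241 in the other KO libraries and 2925 and 3024 in WT, and member differences between KO and WT at day 24 are therefore also given without it. Of the KO libraries it was also the nearest to WT for *ACTA2*, *TAGLN*, *MYL9*, *TPM1*, *TPM2* and *TMSB4X*. Leaving it out widens these differences by itself, so the values without it are a description and no separate support. Fewer cells of a type and less RNA per cell cannot be told apart in these bulk samples.

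At day 24 *ACTA2*, the smooth muscle actin, and *MYL9*, a myosin light chain, were called lower in KO COs, as 2 of the 9 members tested, where 8.01% of all 9289 genes tested were called in either direction and 3.79% were called lower. Calls needed an adjusted *p* under 0.05 (limma, Benjamini-Hochberg over all genes tested) together with a 2-fold or larger change on the scale of log2(score + 1). A gene was tested when at least 2 libraries scored 10 or higher, which *MYL9* and *TAGLN* did at day 24 only in WT, so that the counts of members are given as a description. With no minimum score *ACTA2* (adjusted *p* = 0.0396) and *MYL9* (0.0459) were also called. The remaining member, *CNN1*, lay under the minimum score for the test, and was at 7 and 16 in WT against 0 or 1 in KO COs. *TMSB4X* lay on the other side, with 820 and 900 in WT and 1202 to 5585 in KO COs, and did not pass the test. No member was called at day 12, where 0.0900% of 8885 genes were. From day 12 to day 24, 6 of the 9 tested members were called in KO COs (11.5% of 9952 genes) and 2 in WT COs (15.1%).

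**Figure D1:**
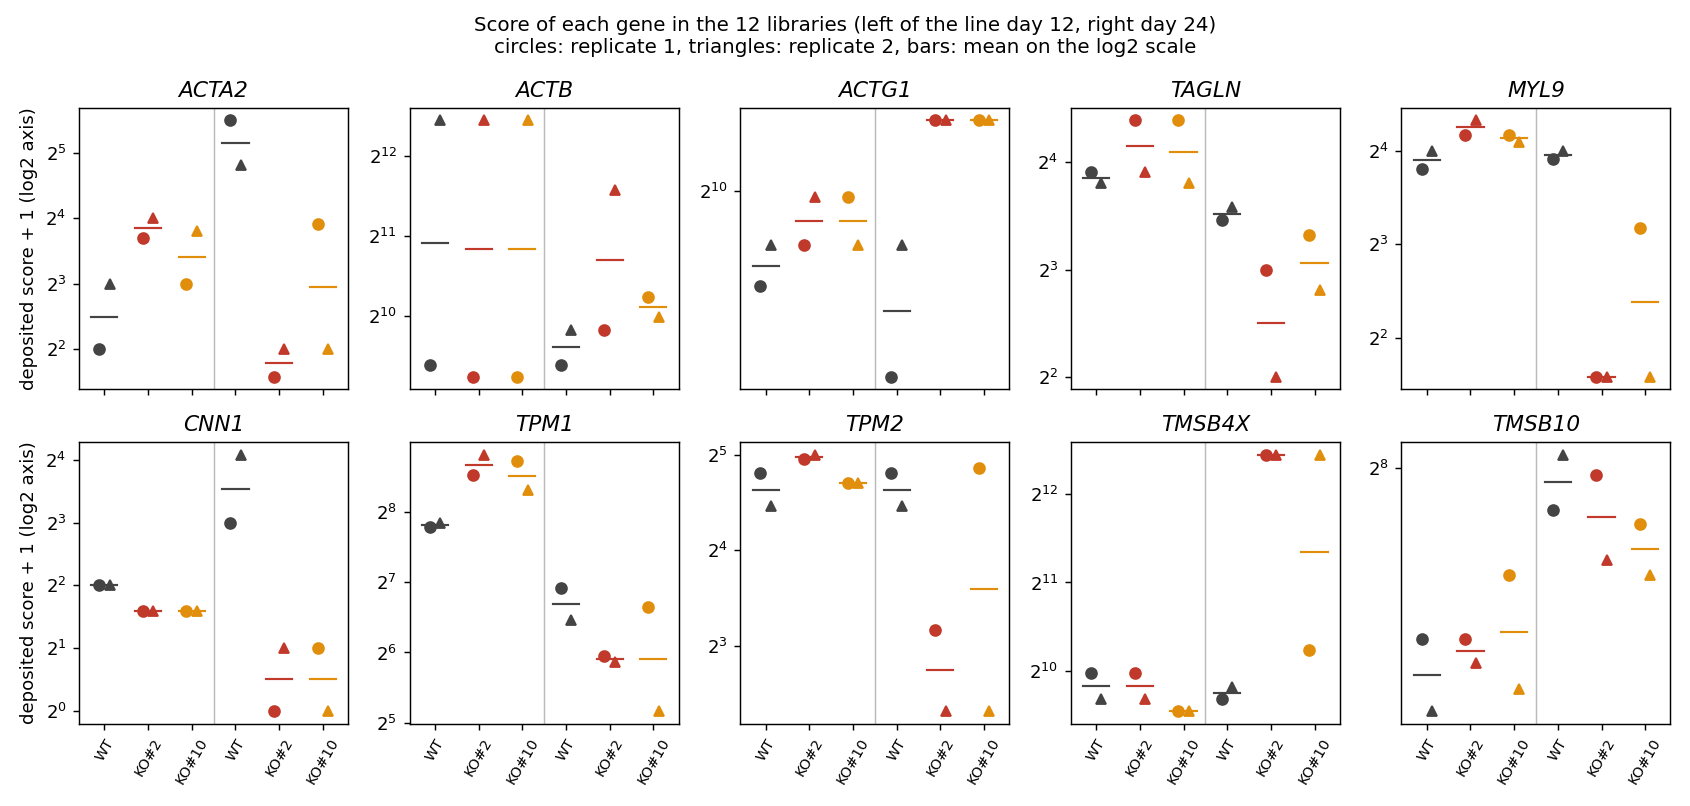
Deposited score plus 1 on a log2 axis for each of the 10 genes in the 12 libraries, by line, with day 12 left and day 24 right of the vertical line, circles for replicate 1, triangles for replicate 2, and bars for the mean on the log2 scale. At day 24 *ACTA2* was at 44 and 27 in WT and 2 to 14 in KO COs, *MYL9* was at 14 and 15 against 2 to 8, and *TMSB4X* was at 820 and 900 against 1202 to 5585.

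*ACTA2* (ENSG00000107796, chr10:88935074-88991339, minus strand) encodes alpha-smooth-muscle actin, the main actin of vascular smooth muscle. On day 12 WT scored 3 and 7, KO#2 scored 12 and 15, and KO#10 scored 7 and 13. By day 24 WT scored 44 and 27, KO#2 scored 2 and 3, and KO#10 scored 14 and 3. WT was thus at the bottom of the range on day 12, where it shared a score of 7 with KO#10, and at the top on day 24 with no overlap. The day 24 difference between 2 WT and 4 KO libraries was a log2 fold change of -2.78 ± 0.63 (SE, adjusted *p* = 0.0353). Without the first KO#10 library the log2 fold change was -3.29 (adjusted *p* = 0.00330). *ACTA2* then reached the minimum score at day 24 only in WT, the group in which it was high. The call was lost when any one of the other 5 libraries was left out, with adjusted *p* of 0.0735 (without the first KO#2 library) to 0.254 (without the second WT library). At day 12 the difference had the other sign, at 1.13 ± 0.37 on the log2 scale, and was not called (adjusted *p* = 0.306).

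Over time *ACTA2* rose in WT COs, by 2.65 ± 0.63 on the log2 scale (adjusted *p* = 0.00949). In KO COs it fell by 1.25 (SE 0.45, adjusted *p* = 0.0425), with overlap between the days because the first KO#10 library at day 24 scored 14. The difference between these changes, tested as an interaction of genotype and day, was -3.90 ± 0.77 and was called (adjusted *p* = 0.0367), the only such call among the 9 tested members, where 1.31% of 9952 genes were called. Without the first KO#10 library at day 24 it was -4.42 (adjusted *p* = 0.000648). Leaving out the first KO#2 library of day 24 kept the interaction call, and leaving out any one of the other 10 libraries ended it, with adjusted *p* of 0.0534 to 0.161. The rise in WT COs was no longer called without the first WT library of day 12 (adjusted *p* = 0.0880) or of day 24 (0.0655). The fall in KO COs was lost without either KO#2 library of either day, either WT library of day 24, or the second KO#10 library of either day (adjusted *p* of 0.0502 to 0.108).

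The interval of *ACTA2* overlaps *FAS*, *STAMBPL1* and *ACTA2-AS1* on the other strand, and reads of those genes can be told from its own only if the counting used the strand, which is not stated. Promoter windows from RefSeq (GRCh38.p14) matched 7 of the 10 genes, with none for *ACTB*, *TAGLN* or *MYL9*. They were searched on both strands, over the 250 bases before the start, for the AP-1 letters TGANTCA, the related TGACGTCA, and the CArG box that serum response factor (SRF) binds in muscle actin genes. The box was searched as CC, a run of 6 bases that are all A or T, and GG, and again with exactly 1 G or C allowed inside the run. None of the 9 windows of these 7 genes held TGANTCA (6.57% of 35116 promoters did) or TGACGTCA (1.65%), 1 held the strict CArG box (1.16%), that of *ACTG1*, and 1 held the looser one (5.96%), that of the shorter *ACTA2* transcript, which held it at 2 places. The first bases of these lie at -121 and -71, and *ACTA2* is a known target of SRF through elements of this kind. The 150 bases before the start of the shorter *ACTA2* transcript, shown because *ACTA2* carries the day 24 result (chr10:88952774-88952923, minus strand), and those before *ACTG1*, whose strict box has its first base at -94 (chr17:81512800-81512949, minus strand), are given 5′ to 3′ with the boxes in capitals.
ACTA2: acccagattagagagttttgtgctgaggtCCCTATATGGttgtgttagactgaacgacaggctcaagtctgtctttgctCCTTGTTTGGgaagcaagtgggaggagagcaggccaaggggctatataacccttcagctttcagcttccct
ACTG1: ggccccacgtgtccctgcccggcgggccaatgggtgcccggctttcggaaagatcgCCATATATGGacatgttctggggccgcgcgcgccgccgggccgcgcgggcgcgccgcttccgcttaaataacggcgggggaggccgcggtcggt
A match is a description of letters, and no match says only that these letters are not in these windows.

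*CNN1* (ENSG00000130176, chr19:11538767-11550323, plus strand) encodes calponin 1, a thin filament protein of differentiated smooth muscle. Both WT libraries scored 3 at day 12, where each of the 4 KO libraries scored 2. On day 24 WT scored 7 and 16, KO#2 scored 0 and 1, and KO#10 scored 1 and 0. WT libraries were above all KO libraries on both days, by 1 unit of the scale on day 12, and on day 24 the first KO#10 library was as low as the other KO libraries. *CNN1* reached the minimum score of 10 in only 1 library. With no minimum its log2 fold change at day 24 was -3.04 ± 0.50 (adjusted *p* = 0.0226) and at day 12 it was -0.41 ± 0.19 (adjusted *p* = 0.486). In that fit it was higher at day 24 than at day 12 in WT (1.54, adjusted *p* = 0.0270), lower in KO COs (-1.08, adjusted *p* = 0.0209), and the difference between the changes was -2.63 ± 0.56 (adjusted *p* = 0.0402). The day 24 difference with no minimum was -3.21 ± 0.49 without the first KO#10 library (adjusted *p* = 0.0122).

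*TAGLN* (ENSG00000149591, chr11:117199370-117207464, plus strand) encodes transgelin, an actin-bundling protein that appears early in smooth muscle differentiation. On day 12 WT scored 14 and 13, KO#2 scored 20 and 14, and KO#10 scored 20 and 13. On day 24 WT scored 10 and 11, KO#2 scored 7 and 3, and KO#10 scored 9 and 6. The groups overlapped on day 12 and did not overlap on day 24, where the largest KO score was 1 unit below the smaller WT score. The day 24 difference of -0.74 ± 0.38 on the log2 scale was not called (adjusted *p* = 0.195), and it was -0.92 without the first KO#10 library (adjusted *p* = 0.0840). *TAGLN* fell by 1.34 from day 12 to day 24 in KO COs (SE 0.25, adjusted *p* = 0.00164), and the change in WT was -0.33 ± 0.35 (adjusted *p* = 0.494). The interaction of -1.01 ± 0.43 was not called (adjusted *p* = 0.204), nor was it without that library (-1.19, adjusted *p* = 0.0720).

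*MYL9* (ENSG00000101335, chr20:36541497-36551447, plus strand) encodes a regulatory light chain of myosin II whose phosphorylation switches on contraction. At day 12 WT scored 13 and 15, KO#2 scored 17 and 19, and KO#10 scored 17 and 16. At day 24 WT scored 14 and 15, KO#2 scored 2 and 2, and KO#10 scored 8 and 2. WT stayed at 13 to 15 on both days, whereas the 4 KO libraries lay above WT on day 12 and below it on day 24, with no overlap on either day. *MYL9* was lower in KO COs at day 24, at -1.97 ± 0.53 on the log2 scale, and its adjusted *p* of 0.04997 was at the edge of the threshold (0.0575 with the replicate number as a block, where it was not called). Only the WT libraries reached the minimum score at day 24, so that *MYL9* entered this test through the group in which it was high, and with no minimum its adjusted *p* was 0.0459. It was -2.37 (adjusted *p* = 0.00338) without the first KO#10 library. The KO libraries then left all scored 2, so this *p* holds no spread between KO libraries and does not measure their error. The same limit applies at day 24 to the interaction without that library, given below. *MYL9* was not called without the first KO#2 (0.0958), the second KO#2 (0.115) or the second KO#10 library (0.112). Without either WT library it no longer reached the minimum score. The day 12 difference of 0.28 ± 0.14 was not called (adjusted *p* = 0.514). *MYL9* fell by 2.21 over time in KO COs (SE 0.30, adjusted *p* = 2.79e-04), the change in WT was 0.05 ± 0.43, and the interaction of -2.26 ± 0.52 did not pass the test (adjusted *p* = 0.0540) with all libraries but did without the first KO#10 library of day 24 (-2.65, adjusted *p* = 1.32e-04) and with the replicate number as a block (adjusted *p* = 0.0443).

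*TPM1* (ENSG00000140416, chr15:63042632-63071915, plus strand) encodes a tropomyosin with muscle and cytoplasmic isoforms, which gene scores do not separate. WT scored 219 and 228, KO#2 scored 368 and 450, and KO#10 scored 423 and 316 at day 12. The day 24 scores were 120 and 87 for WT, 61 and 57 for KO#2, and 99 and 35 for KO#10. All KO libraries were above WT on day 12, and on day 24 only the first KO#10 library reached into the WT range. The day 12 difference was 0.78 ± 0.18 on the log2 scale (mean scores of 224 ± 6.36 for 2 WT and 389 ± 59.6 for 4 KO libraries, SD), and it was not called (adjusted *p* = 0.163, or 0.0611 with the replicate number as a block). At day 24 the difference was -0.78 ± 0.37 (adjusted *p* = 0.168) with all libraries, and -1.03 (adjusted *p* = 0.0405) without the first KO#10 library. *TPM1* fell over time in both genotypes, with changes of -1.12 ± 0.35 in WT (adjusted *p* = 0.0321) and -2.69 ± 0.25 in KO COs (adjusted *p* = 2.23e-05). The WT call was lost without any one of the 4 WT libraries (adjusted *p* of 0.0528 to 0.189). The interaction was -1.57 ± 0.43 (adjusted *p* = 0.0785, or 0.0491 and called with the replicate number as a block), and -1.81 without the first KO#10 library of day 24 (adjusted *p* = 0.00683).

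*TPM2* (ENSG00000198467, chr9:35681992-35690056, minus strand) encodes beta-tropomyosin of muscle and fibroblasts. Its day 12 scores were 27 and 21 for WT, 30 and 31 for KO#2, and 25 and 25 for KO#10. WT scored 27 and 21 again at day 24, KO#2 scored 8 and 4, and KO#10 scored 28 and 4. WT was at the same scores on both days, 3 KO libraries of day 24 were far below every other library, and the first KO#10 library was as high as WT. The day 24 difference of -1.47 ± 0.69 on the log2 scale was not called (adjusted *p* = 0.166), and it was -2.03 ± 0.31 (adjusted *p* = 0.00918) without that library. *TPM2* then reached the minimum score at day 24 only in WT. *TPM2* fell by 1.67 over time in KO COs (SE 0.44, adjusted *p* = 0.0104), with overlap between the days. The interaction of -1.67 ± 0.75 was not called (adjusted *p* = 0.223) with all libraries and was -2.23 (adjusted *p* = 0.00338) without the first KO#10 library of day 24.

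**Figure D2:**
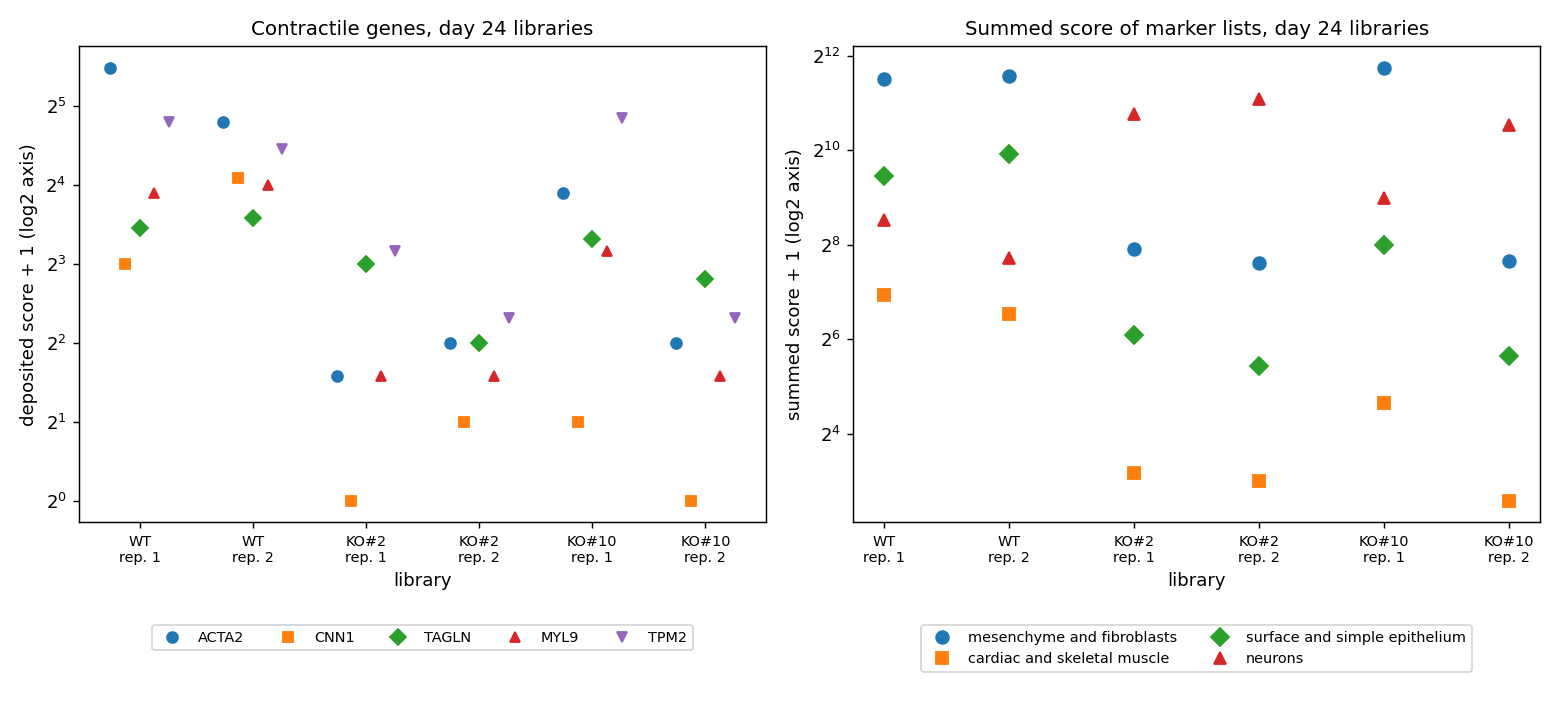
Left, deposited score plus 1 on a log2 axis for *ACTA2*, *CNN1*, *TAGLN*, *MYL9* and *TPM2* in each of the 6 day 24 libraries, with genes set side by side within a library. Right, summed score plus 1 of 4 marker lists in the same libraries, where the first KO#10 library had a mesenchyme sum of 3436 and a *TPM2* score of 28, an *ACTA2* score of 14 and a *CNN1* score of 1.

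*ACTB* (ENSG00000075624, chr7:5526409-5563902, minus strand) and *ACTG1* (ENSG00000184009, chr17:81509413-81523847, minus strand) encode beta-actin and gamma-actin, the cytoplasmic actins of all cells. For *ACTB*, WT scored 666 and 5585 at day 12, and each KO line scored 602 and 5585. Scores at day 24 were 667 and 902 for WT, 902 and 3043 for KO#2, and 1204 and 1008 for KO#10. On day 12 the gene was at the top score in each library of replicate 2 and at 602 to 666 in each of replicate 1, so its spread between replicates was larger than any difference between lines. *ACTB* was not called in any comparison without a replicate block, with log2 differences between KO and WT of -0.07 ± 1.18 on day 12 (adjusted *p* = 0.993) and 0.80 ± 0.47 on day 24 (adjusted *p* = 0.249), and changes over time of -1.31 ± 1.18 in WT and -0.44 ± 0.84 in KO COs. With the replicate number as a block within each day, the change of -1.31 in WT was called (adjusted *p* = 0.0257). It differed by 0.86 ± 0.54 between KO and WT at day 24 (adjusted *p* = 0.265) without the first KO#10 library.

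For *ACTG1*, WT scored 820 and 902, KO#2 scored 902 and 1008, and KO#10 scored 1008 and 902 at day 12. At day 24 WT scored 666 and 902, and each of the 4 KO libraries scored 1203, the first KO#10 library included. The groups overlapped on day 12 and did not overlap on day 24. The day 24 difference of 0.63 ± 0.14 on the log2 scale had an adjusted *p* of 0.0328 and stayed under the 2-fold limit, so that *ACTG1* was not called, nor was it without the first KO#10 library (0.63, adjusted *p* = 0.0243). With the KO libraries tied at 1203, these *p* hold no spread between KO libraries. The day 12 difference was 0.15 ± 0.15 (adjusted *p* = 0.791), and the changes over time were -0.15 ± 0.18 in WT and 0.34 ± 0.13 in KO COs (adjusted *p* = 0.561 and 0.0589). The coding sequences of *ACTB* and *ACTG1* in GENCODE release 29 have 1029 of 1128 bases in common (91.2%), with an identical run of up to 59 bases. That release also names 10 pseudogene copies of *ACTB* and 20 of *ACTG1*, of which 0 are among the genes of the files, so that the split of reads among these loci is uncertain.

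*TMSB4X* (ENSG00000205542, chrX:12975110-12977227, plus strand) encodes thymosin beta-4, the main actin monomer-binding peptide of many cells. WT and KO#2 each scored 1007 and 819 at day 12, and KO#10 scored 748 and 748. On day 24 WT scored 820 and 900, KO#2 scored 5585 in both libraries, and KO#10 scored 1202 and 5585. At day 24 the gene was thus among those at the top score in 3 KO libraries, above WT in the fourth, and within its day 12 range in WT. The day 24 difference was 2.15 ± 0.63 on the log2 scale and narrowly missed the threshold (adjusted *p* = 0.0594), and without the first KO#10 library it was 2.70 ± 0.08 (adjusted *p* = 6.26e-04). The 3 KO libraries then left are tied at the top score, so this SE and *p* hold no spread between KO libraries and do not measure their error. *TMSB4X* rose by 2.21 over time in KO COs (SE 0.41, adjusted *p* = 0.00165), and the change in WT was -0.08 ± 0.58. The interaction was 2.28 ± 0.71 (adjusted *p* = 0.105), and 2.84 without the first KO#10 library of day 24 (adjusted *p* = 3.12e-04). No score lies between 3048 and 5585, and in the first KO#10 library of day 24 none lay between 1204 and 3030. The size of these changes, their SE and their *p* therefore depend on the steps at the top of the scale.

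*TMSB10* (ENSG00000034510, chr2:84905656-84906671, plus strand) encodes thymosin beta-10, a related peptide of embryonic and nervous tissue. The day 12 scores were 162 and 134 for WT, 162 and 152 for KO#2, and 192 and 142 for KO#10. The day 24 scores were 228 and 264 for WT, 250 and 200 for KO#2, and 220 and 192 for KO#10. KO and WT overlapped on both days, and the differences of 0.13 ± 0.17 and -0.19 ± 0.15 on the log2 scale were not called (adjusted *p* = 0.859 and 0.368), with -0.21 (adjusted *p* = 0.342) at day 24 without the first KO#10 library. Its score was higher on day 24 in both genotypes, by 0.73 ± 0.19 in WT (adjusted *p* = 0.0138) and 0.41 ± 0.13 in KO COs (adjusted *p* = 0.0292), each under the 2-fold limit. The coding sequences of both thymosins are shown because the genes are close relatives with different patterns in these libraries. They come from GENCODE release 29 (GRCh38), each joined from 2 exon blocks (chrX:12976262-12976811 and chr2:84906018-84906423, plus strand), and capitals mark the bases that differ.
TMSB4X: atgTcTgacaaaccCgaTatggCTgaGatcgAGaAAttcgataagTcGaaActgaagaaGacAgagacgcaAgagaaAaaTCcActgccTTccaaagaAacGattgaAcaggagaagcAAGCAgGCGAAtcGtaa
TMSB10: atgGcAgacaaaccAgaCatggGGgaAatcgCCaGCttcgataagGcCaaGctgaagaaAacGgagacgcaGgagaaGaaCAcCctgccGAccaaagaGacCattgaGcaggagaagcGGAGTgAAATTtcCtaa
They are identical at 98 of 135 positions (72.6%), with no identical run longer than 10 bases. Release 29 names 6 pseudogene copies of *TMSB4X* and 2 of *TMSB10*, of which 0 are among the genes of the files.

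In KO against WT at day 24, 4 of the 10 members were lower in every KO library than in either WT library (*ACTA2*, *TAGLN*, *MYL9*, *CNN1*) and 2 were higher (*ACTG1*, *TMSB4X*). Among the tested genes these were 5 of 9, against 44.0% of all genes tested, a share near that background. The median log2 fold change of the 9 tested members was -0.74, and that of all tested genes was 0.01. At day 12, 2 of 9 tested members did not overlap between the genotypes (*MYL9*, *TPM1*, both higher in KO COs), where 16.6% of all genes did not, and their median was 0.21. At an unadjusted *p* under 0.05, 2 members and 980 of all genes passed at day 12 by limma. With the replicate number as a block, the genes called at day 12 went from 8 to 71 and the members called stayed at 0. Without the first KO#10 library, 5 of 9 tested members were called at day 24 (*ACTA2*, *MYL9*, *TPM1* and *TPM2* lower, *TMSB4X* higher), and 14.7% of 9180 genes were. For *MYL9* and *TMSB4X* the 3 KO libraries then left were tied. *ACTA2*, *MYL9* and *TPM2* then reached the minimum score at day 24 only in WT. The library left out was the KO library nearest to WT for each of the members called, so these calls are no separate result.

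**Figure D3:**
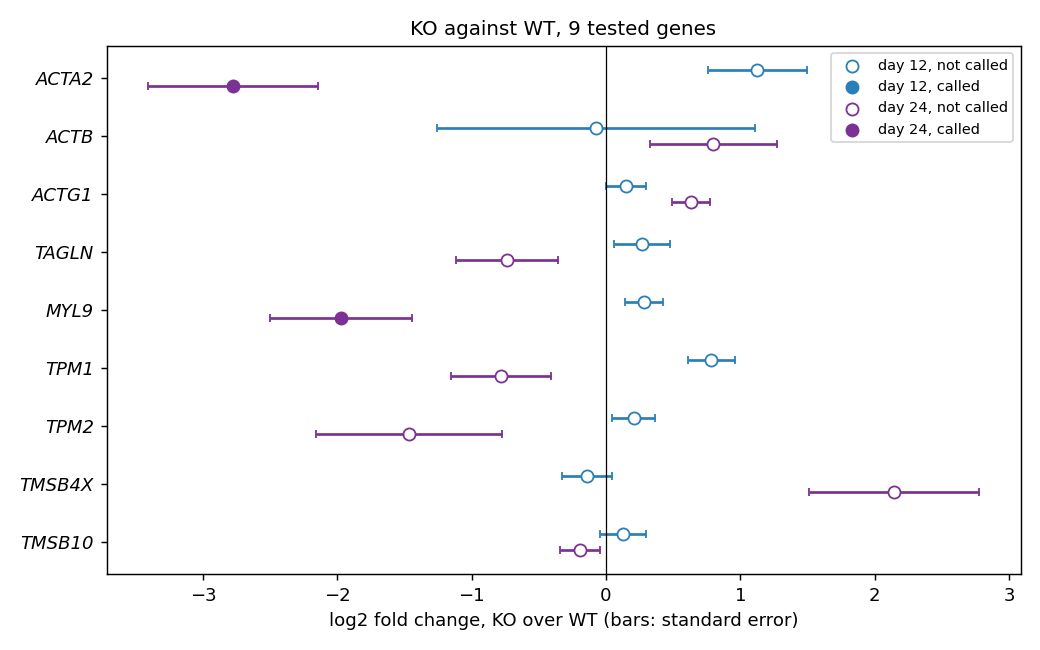
Log2 fold change of KO over WT for the 9 tested genes on day 12 (blue) and day 24 (purple), with bars for the standard error and filled points for called genes. *ACTA2* was at 1.13 on day 12 and -2.78 on day 24, and no gene was called on day 12.

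The clones were also set against WT one at a time at day 24, with the same WT libraries in both comparisons. In KO#2 *ACTA2* was called lower, at -3.36 ± 0.64 on the log2 scale (adjusted *p* = 0.0375), as 1 of the 9 tested members (8.99% of all genes). *MYL9* at -2.37 ± 0.57 (adjusted *p* = 0.0502) and *TMSB4X* at 2.70 ± 0.66 (adjusted *p* = 0.0517) just missed the threshold there. The KO#2 call of *ACTA2* was lost without either WT or either KO#2 library (adjusted *p* of 0.154 to 0.249). In KO#10 no member was called (0.280% of all genes), with *ACTA2* at -2.20 ± 0.64 (adjusted *p* = 0.136), *MYL9* at -1.58 ± 0.57 (adjusted *p* = 0.178) and *TMSB4X* at 1.59 ± 0.66 (adjusted *p* = 0.214). Between KO#2 and KO#10, limma called 0 genes at either day (0% of those tested), with 479 at day 24 and 115 at day 12 at an unadjusted *p* under 0.05, of which 0 were members. The largest member difference between the clones at day 24 was that of *ACTA2*, at -1.16 ± 0.64 on the log2 scale (adjusted *p* = 0.825). No member's scores separated the clones at day 24 (28.4% of all genes tested did).

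**Figure D4:**
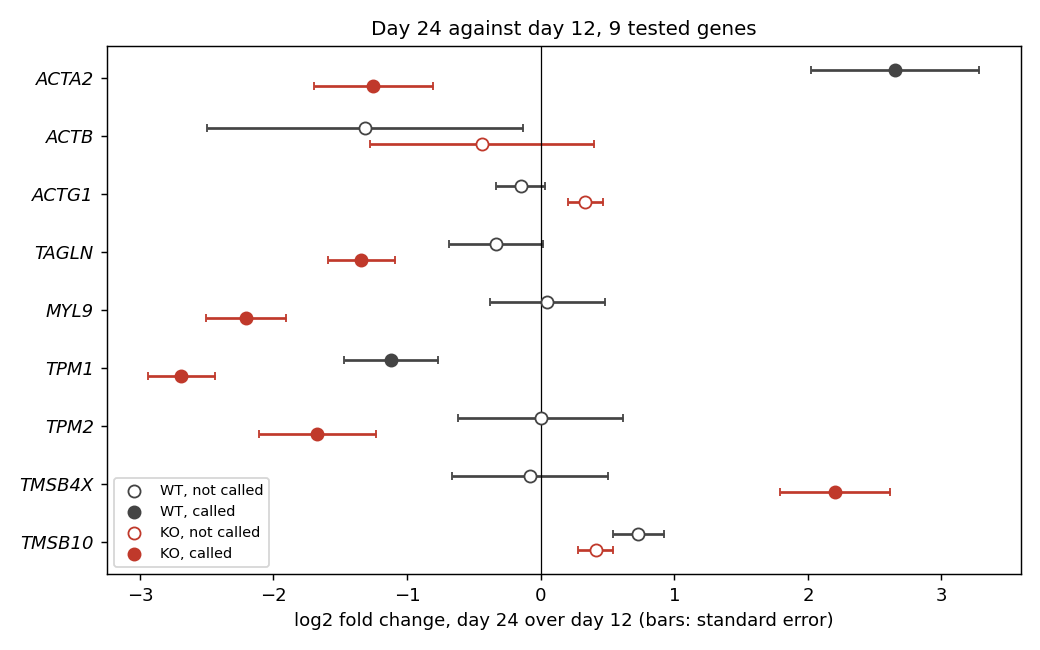
Log2 fold change of day 24 over day 12 for the 9 tested genes in WT (grey) and KO COs (red), with bars for the standard error and filled points for called genes. *ACTA2* was at 2.65 in WT and -1.25 in KO COs, and *TPM1* was below 0 in both, at -1.12 and -2.69.

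Over time, the 6 members called in KO COs were *ACTA2*, *TAGLN*, *MYL9*, *TPM1* and *TPM2*, which were lower at day 24, and *TMSB4X*, which was higher. In WT *ACTA2* was called higher and *TPM1* lower. Scores of the 2 days did not overlap for 5 of the 9 tested members in KO COs (31.6% of all genes) and for 4 of 9 in WT (63.7%). Without the first KO#10 library of day 24, the members called over time in KO COs were again 6 (11.5% of 9896 genes), and the interaction called 5 (9.26%). These 5 were *ACTA2*, *TPM1*, *TPM2*, and *MYL9* and *TMSB4X*, whose KO libraries of day 24 were then tied. The library left out was the KO library nearest to WT at day 24 for each of these 5. The calls in KO COs, other than that of *ACTA2*, held when any one of the 12 libraries was left out.

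The other genes of the actin cytoskeleton were read from lists of the same pathway. Their counts of calls at day 24 are a description, where 8.01% of all genes tested were called and 3.79% were called lower. Of the actins outside the group only *ACTC1*, cardiac alpha-actin, was in the files. It scored 29 and 23 in WT and 1 to 3 in KO COs at day 24, the first KO#10 library at 2, and was called lower, at -3.10 ± 0.39 on the log2 scale (adjusted *p* = 0.0181). It rose by 2.58 in WT over time (adjusted *p* = 0.00251), like *ACTA2*. *ACTC1* reached the minimum score only in the WT libraries of day 24, so it entered these tests through the group in which it was high. Among 5 relatives of calponin and transgelin, 1 was called at day 24 (median of -0.39 over the list), *TAGLN3*, the transgelin of neurons, which was higher in KO COs by 1.46 (adjusted *p* = 0.0377). *CALD1*, caldesmon, and *TAGLN2* rose over time in WT, by 1.07 and 1.06. The 4 tropomyosins and tropomodulins tested had 0 calls at day 24, and *TMOD2*, the tropomodulin of neurons that caps filament ends, rose by 1.56 over time in KO COs. *TMOD2* reached the minimum score only in the KO#2 libraries of day 24. Of the thymosin relatives, 0 of 2 were called at day 24 and *TMSB15B* rose over time in KO COs by 1.22.

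**Figure D5:**
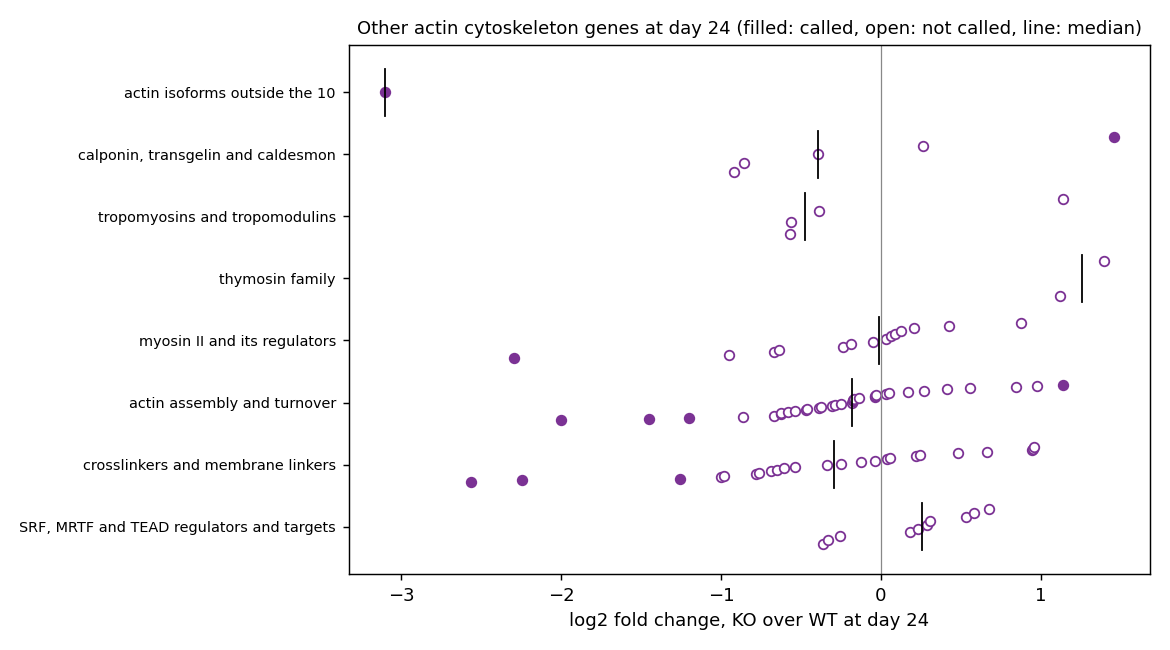
Log2 fold change of KO over WT at day 24 for the tested genes of 8 actin cytoskeleton lists, with filled points for called genes and a line at each list's median. Calls were 3 lower of 24 crosslinkers, 3 lower and 1 higher of 33 assembly genes, and 0 of 10 SRF, MRTF and TEAD genes, where 8.01% of all genes tested were called.

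Of the 14 genes tested for myosin II and its regulators, 1 was called at day 24 (8.01% of all genes). This was *MYL12A*, a light chain of non-muscle myosin II, lower at -2.30 ± 0.58 (adjusted *p* = 0.0444), at 369 and 452 in WT, 46 to 74 in 3 KO libraries and 228 in the first KO#10 library. *MYH9*, the heavy chain of non-muscle myosin IIA, fell by 1.41 over time in KO COs (adjusted *p* = 1.11e-04), and *MYLK*, the kinase of the light chain, fell over time in both genotypes (-1.38 for WT, -1.70 for KO). Actin assembly genes had 3 lower and 1 higher of 33 at day 24 (8.01% of all genes in either direction), with a median of -0.18. *GSN*, the severing protein gelsolin, was lower at -1.997 (adjusted *p* = 0.0241), *ARPC1B* of the Arp2/3 complex at -1.45 (0.0374) and *VASP*, which promotes filament elongation, at -1.20 (0.0233). *PFN2*, the profilin of neurons, was higher by 1.13 (adjusted *p* = 0.0215).

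Crosslinkers and membrane linkers had 3 lower and 0 higher of 24 at day 24 (8.01% of all genes in either direction, 3.79% lower), with a median of -0.29. They were *PDLIM1* (-2.56, adjusted *p* = 0.0165), a partner of alpha-actinin, *FLNC* (-2.25, 0.0243), the filamin of muscle, and *EZR* (-1.26, 0.0208), which ties actin to the membrane of epithelia. *VCL*, vinculin of adhesion sites, fell over time in KO COs by 1.77 (adjusted *p* = 9.89e-05). The list of SRF, MRTF and TEAD regulators and their targets had 0 of 10 called at day 24, with a median of 0.26 and a range of -0.36 to 0.68. *SRF* itself scored 9 to 15 in every library. *CCN1*, a target of YAP and SRF, fell by 1.39 over time in KO COs (adjusted *p* = 0.00431), and *MRTFB*, a coactivator of SRF, fell by 1.55 in WT (adjusted *p* = 4.88e-04).

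The list genes named above as called in KO against WT at day 24 were all called again without the first KO#10 library. *ACTC1* was then at -3.08 on the log2 scale, *TAGLN3* at 1.72, *MYL12A* at -2.78, *GSN* at -2.30, *ARPC1B* at -1.66, *VASP* at -1.34, *PFN2* at 1.19, *PDLIM1* at -2.58, *FLNC* at -2.58 and *EZR* at -1.39, with adjusted *p* of 0.00228 (*GSN*) to 0.0114 (*PFN2*). The calls went from 3 to 8 among crosslinkers and membrane linkers (5 lower and 3 higher of 23), from 1 to 3 among the relatives of calponin and transgelin, from 1 to 2 among myosin II genes, where *MYH9* was added (-1.08, adjusted *p* = 0.00501), and from 0 to 1 among tropomyosins and tropomodulins, where *TMOD2* was added (1.41, adjusted *p* = 0.00672). Actin assembly genes had 4 calls before and then 3 lower and 2 higher of 33. Thymosin relatives and the SRF, MRTF and TEAD list stayed at 0. Over all genes tested, calls went from 8.01% to 14.7% without the first KO#10 library, so more calls were not particular to these lists. The changes over time in KO COs given above for *MYH9*, *MYLK*, *VCL*, *CCN1*, *TMOD2* and *TMSB15B* were also called without it.

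Markers of cell types that use these genes, and of others a CO may hold, were read beside them at day 24. Of 12 mural and smooth muscle markers 6 were in the files, and their summed score was 167 and 180 in WT and 88 to 142 in KO COs (0 of 5 tested were called). Defining smooth muscle genes such as *MYH11*, *DES* and *LMOD1* were looked for and were not among the genes of the files. The mesenchyme sum (11 of 13 markers) was 2925 and 3024 in WT and 195 to 3436 in KO COs, after 81 to 120 on day 12, and 1 of 11 was called, *FN1*, lower at -3.10 on the log2 scale. The cardiac and skeletal muscle sum (4 of 14 markers, *ACTC1* among them) was 92 and 121 in WT and 5 to 24 in KO COs, and 3 of 4 were called lower. The surface and simple epithelium sum (8 of 10) was 701 and 966 in WT and 42 to 255 in KO COs, with 8 of 8 called lower. Of the called muscle and epithelium markers, *ACTC1*, *TNNT1*, *MYL4*, *EPCAM*, *CDH1*, *CLDN6*, *CLDN4* and *ESRP1* reached the minimum score at day 24 only in WT. The neuron sum (12 of 12) was 210 and 368 in WT and 504 to 2156 in KO COs, with 5 called higher. Among those called, *ELAVL4* reached the minimum score at day 24 only in KO COs. The counts of markers called are a description, where 8.01% of all genes tested were called at day 24. Pluripotency markers (9 of 9) summed to 509 and 969 in WT and to 58 to 88 in KO COs, and endoderm markers (5 of 10) to 6909 and 7138 in WT and 33 to 1254 in KO COs. Neural progenitor markers (10 of 10) summed to 563 and 768 in WT and 1033 to 1237 in KO COs. No marker of these lists that was in the files was at 0 in all libraries of a genotype at day 24. Without the first KO#10 library, 9 of 10 tested mesenchyme markers were called lower, 2 of 5 mural markers were called lower and 1 higher, and 11 of 12 neuron markers were called higher. That library was set apart by its mesenchyme sum, so the mesenchyme count follows from leaving it out and is no separate result. The part of the marker lists in the member differences was not tested. Among the 4 KO libraries the first KO#10 library had the highest mesenchyme sum (3436), the highest mural sum (142) and the highest scores of *ACTA2* (14), *TAGLN* (9), *MYL9* (8), *TPM1* (99) and *TPM2* (28). Its *TPM1* and *TPM2* scores reached the WT range or above it, and those of *ACTA2*, *TAGLN*, *MYL9* and *CNN1* were below both WT libraries.

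Across the 12 libraries the members differed in which genes they resembled. Likeness was ranked by Pearson's *r* of log2(score + 1) over 12 libraries, among 9943 other genes, and Spearman's rho is given beside it. *ACTA2* was most like *SMTN* (*r* = 0.937, rho = 0.946), the smooth muscle protein smoothelin, and *MYL9* was most like *SERPINH1* (0.982 and 0.961), a collagen chaperone. Next came *GPRC5C* (0.935 and 0.922) and *SNHG18* (0.927 and 0.895) for *ACTA2*, and *SERINC5* (0.98 and 0.799) and *CTDSPL* (0.962 and 0.869) for *MYL9*. *TAGLN* was most like *GPR143* (0.957 and 0.964), followed by *P3H3* (0.945 and 0.918) and *COL4A1* (0.943 and 0.984). *TPM2* was most like *LAMB1* (0.964 and 0.697), followed by *CPVL* (0.943 and 0.668) and *ADD3* (0.94 and 0.316). Of these, *COL4A1* and *LAMB1* are genes of basement membrane proteins. *TMSB4X* had *TULP4* (0.978 and 0.814), *SEPTIN3* (0.974 and 0.767) and *TMOD2* (0.968 and 0.812) as its nearest genes, and *ACTB* had *TUBB* (0.951 and 0.955), a beta-tubulin. *TPM1* had *ENO3* (0.978 and 0.974), *SEMA3F* (0.975 and 0.93) and *EPHA2* (0.974 and 0.956). The nearest gene was *ADCY2* (0.903 and 0.923) for *ACTG1* and *TBCA* (0.946 and 0.944) for *TMSB10*. Among the members *r* was 0.932 for *MYL9* and *TPM2* (rho = 0.657), and -0.985 for *MYL9* and *TMSB4X* (rho = -0.832). For *TPM2* and *TMSB4X* rho was lower in size than *r*, and 3 KO libraries of day 24 lay far from the other 9 on both genes, tied at the top score for *TMSB4X*. The same 3 libraries were tied at 2 for *MYL9*, its lowest score, and its rho with *TPM2* and *TMSB4X* was also lower in size than *r*. These are descriptions over libraries that share lines, days and a normalization.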

How the data were processed

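Total RNA of pooled COs was sequenced in 12 libraries. The authors deposited 1 whole-number score per gene and library. These scores are not raw counts, because all libraries share their median and highest value. How they were normalized, and whether counting used the strand, is not given in the sources used here. The submitters' processing notes list bcl2fastq, RSEM and Bowtie2 and the mouse build mm10, whereas the gene identifiers are human and 10975 of the 10976 intervals overlap that of the same gene in GENCODE release 29 (GRCh38). Printed coordinates are those of the files, and the build was checked by overlap alone.

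Scores were joined by gene identifier and transformed as log2(score + 1). Genes entered a fit when 2 or more of its libraries scored 10 or higher, and were tested by limma 3.58.1 in R 4.3.3 (lmFit, eBayes, variance trend). Benjamini-Hochberg adjustment covered all genes of a fit. Calls required an adjusted *p* under 0.05 and a log2 change of 1 or more in size, a scale that understates the change of low genes. KO was set against WT within each day (2 and 4 libraries), clones within a 3-group fit per day, and days and the interaction in 1 fit of 12 libraries. The design allowed for counts, and limma was used because the values are scores. The script was tested on simulated data. Joins and plots used Python 3.11.15 with numpy 2.4.6, pandas 2.3.3 and matplotlib 3.10.9.

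The members and gene lists were chosen with earlier results of these data known. All 10 members are named in every comparison, and from each list up to 4 called genes with the largest change, or fewer. At day 12 the deviations of same-numbered libraries from their line means correlated (*r* of 0.376 to 0.556 across 9952 genes, numbers from the sample labels), so the numbers pair the libraries of day 12. At day 24 *r* was -0.094 to 0.328. All printed values come from fits without a replicate block unless a block is named. Alternatives were another pseudocount, other minimum scores, no trend, a replicate block, all libraries in 1 fit, centring, and each library left out.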

Additional observations from a re-analysis of the deposited data

Results flagged for a closer look

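In groups of 4 libraries, a highest or lowest score that lay far from the rest was looked for by Dixon's ratio at its 95% critical value, which chance exceeds in about 1 in 20 groups. The ratio was taken on the scores themselves and was not computed on log2(score + 1), the scale of the other tests. Of 18 groups of KO libraries, 5 exceeded the critical value, all on day 24. In 4 of them the far library was the first KO#10 library, with the highest score of *ACTA2* (14, against 2 to 3 in the other KO libraries), *MYL9* (8, against 2) and *TPM2* (28, against 4 to 8), and the lowest of *TMSB4X* (1202, against 5585). For *ACTB* it was the second KO#2 library, at 3043 against 902 to 1204. That distance lies in a coarse part of the scale, where the next score above 1204 in the first KO#10 library was 3030. For *MYL9* and *TMSB4X* the other KO scores were tied, which sets the ratio at 1.0 whatever the far score. The rate of 1 in 20 does not apply to them.

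The change of *ACTA2* from day 12 to day 24 differed between the genotypes, with an interaction of -3.90 on the log2 scale (limma, adjusted *p* = 0.0367). *CNN1* moved in opposite directions, from 3 to between 7 and 16 in the WT libraries and from 2 to between 0 and 1 in the KO libraries. It lay under the minimum score, so this difference was not tested with the minimum in place. With no minimum it had an adjusted *p* of 0.0402.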

How the results depend on the processing

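Depth is unknown and limits every low score. Over the 63 results, 897 of 975 values under an alternative kept their direction and side of the threshold, 39 lost a call, 25 gained one and 14 changed sign. In KO against WT at day 24, the 2 members called became 1 with a pseudocount of 0.1 (*MYL9*, adjusted *p* = 0.0523), 0 with scores of at least 20 in at least every other library, where *ACTA2* and *MYL9* were not tested, and 0 to 5 with a library left out (5 without the first KO#10 library, 0 without any other). With all 12 libraries in 1 fit *TMSB4X* was also called (adjusted *p* = 0.0108). Calls over time in WT were 1 under the stricter minimum, 1 with clones as separate groups in 1 fit of 12 libraries, and 0 to 2 with a library left out. In KO COs they were 3 under the stricter minimum. For the interaction, the 1 call became 2 with no minimum, 0 with the stricter one and 0 to 5 with a library left out (5 without the first KO#10 library of day 24). In KO#2 against WT the 1 call became 2 with no minimum, 0 with the stricter one, 2 without the trend, 4 in 1 fit of 12 libraries, 3 with centring and 0 to 3 with a library left out. In KO#10 against WT, 0 became 2 in 1 fit of 12 libraries. Changes of sign came only from leaving out a library and concerned values that were not called. They reached, on the log2 scale, from -1.61 to 1.46 (*ACTB*), -0.29 to 0.00912 (*TMSB4X*) and -0.00912 to 0.26 (*TMSB10*) for KO against WT on day 12, -2.85 to 0.22 (*ACTB*), -0.37 to 0.0687 (*ACTG1*), -0.0466 to 0.15 (*MYL9*) and -0.23 to 0.0688 (*TMSB4X*) over time in WT, -0.98 to 0.0944 (*ACTB*) over time in KO COs, -0.66 to 2.41 (*ACTB*) for the interaction, -0.29 to 0.0270 (*TMSB10*) in KO#2 and -2.31 to 0.22 (*TPM2*) in KO#10. Where no test shows it, the cause of a change was not tested.

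With the replicate number as a block, the calls at day 24 went from 2 to 1 (*MYL9*, adjusted *p* = 0.0575) and those of the interaction from 1 to 3 (*MYL9*, 0.0443, and *TPM1*, 0.0491, were added). A replicate block within each day, chosen after seeing the data, also gave 3 for the interaction, and over time in WT it added *ACTB* (-1.31, adjusted *p* = 0.0257). The block changed no member call at day 12, where the numbers pair the libraries. The list genes without the first KO#10 library, and *CNN1* without it and with no minimum, were also computed after seeing the data.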
